A study of Mus musculus with 9 samples.

Results

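Spleens of mice with Graves' disease on a normal selenium supply (normal Se GD, 3 arrays) were set against spleens of mice free of the disease whose selenium supply was low (low Se non-GD, 3 arrays), which uses 6 of the 9 arrays of the series. The arrays were chosen by the group in their titles, not by any measured value. All mice were female and of the strain balb/c, and total RNA of each spleen sample was hybridised to 1 Agilent whole-genome mouse array in 1 colour. Disease and selenium supply both differ between the 2 groups, so what belongs to either cannot be told apart here. The other 3 arrays, from diseased mice whose supply was low (low Se GD), are given beside the comparison because they share the disease with 1 group and the supply with the other. The series has no group without disease on a normal supply. The sources used here do not give age, how the disease was brought about or what the diets held. Whether the arrays of a group come from separate animals is not stated in the labels, so the p-values reflect only how far these samples spread, and that spread may be technical.

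In Graves' disease, autoantibodies switch on the receptor for thyrotropin, and the thyroid overproduces its hormones. The spleen filters blood: macrophages of its red pulp take up old red cells and recycle their iron, while B and T cells of the white pulp mount antibody responses, and in mice it also makes blood cells. Type I interferons signal through JAK kinases to a complex of STAT proteins and IRF9, which binds the interferon-stimulated response element in front of antiviral genes such as the Ifit family. Selenium enters proteins as selenocysteine, in peroxidases that use glutathione, in reductases of thioredoxin and in the deiodinases of thyroid hormone, and selenoprotein messages are in general known to respond unevenly to the supply.

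The interferon-stimulated genes had the highest share of members raised of all lists examined, and their promoters are shown for that reason. A core of the response element, GAAANNGAAA on either strand, was searched in the windows of 250 bases before to 50 bases after each RefSeq gene start (GRCm38.p6). It was found in 3.44% of all 32851 windows and in 3.99% of the 27025 genes that have one. Among tested interferon-stimulated genes it was found in 12 of the 26 that have a window. Shown are the 200 bases before the start of the 4 raised members with the largest change whose stretch holds the motif, 5′ to 3′ on the gene's strand, with the motif in capitals (it lies on the opposite strand in each). They are Ifit3 (chr19:34583329-34583528, plus strand), Ifit1 (chr19:34640689-34640888, plus strand), Ifit3b (chr19:34607757-34607956, plus strand) and Trim30a (chr7:104465194-104465393, minus strand):
Ifit3: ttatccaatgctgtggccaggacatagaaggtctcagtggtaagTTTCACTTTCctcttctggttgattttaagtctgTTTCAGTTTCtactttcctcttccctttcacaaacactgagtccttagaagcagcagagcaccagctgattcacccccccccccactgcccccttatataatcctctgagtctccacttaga
Ifit1: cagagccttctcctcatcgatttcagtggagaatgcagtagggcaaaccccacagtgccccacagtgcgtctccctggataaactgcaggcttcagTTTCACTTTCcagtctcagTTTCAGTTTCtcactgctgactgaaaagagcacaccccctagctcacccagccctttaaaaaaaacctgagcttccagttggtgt
Ifit3b: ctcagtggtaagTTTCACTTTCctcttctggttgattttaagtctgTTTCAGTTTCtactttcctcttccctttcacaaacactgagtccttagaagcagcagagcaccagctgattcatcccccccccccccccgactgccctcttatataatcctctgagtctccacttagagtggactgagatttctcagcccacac
Trim30a: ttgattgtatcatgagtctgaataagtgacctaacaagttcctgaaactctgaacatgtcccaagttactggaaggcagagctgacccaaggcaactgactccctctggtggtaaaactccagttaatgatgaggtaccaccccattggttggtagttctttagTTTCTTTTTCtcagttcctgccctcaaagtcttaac
The motif starts 156 and 122 bases before the start of Ifit3, 104 and 85 before that of Ifit1, 188 and 154 before that of Ifit3b, and 36 before that of Trim30a. Ifit3 and Ifit3b are near-identical copies, so their probes may not separate the messages. A match is a run of letters and not a measured binding site, and among the raised genes it was found in 9 of the 21 with a window.

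Levels are log2 processed signals minus the 75th percentile of the array, so that 0 is the signal at that percentile. They compare arrays for 1 gene and do not rank genes against each other. Of 18591 genes tested, 25.0% (4654) were higher and 14.5% (2697) were lower in normal Se GD (limma over all 9 arrays, Benjamini-Hochberg adjusted p under 0.05), and the median difference of all genes was 0.08. These shares are the background against which every list below is read. In 4622 of the higher and 2679 of the lower genes the 3 arrays of one group lay wholly above or below the 3 of the other, as they did in 10148 of all 18591 genes tested. Markers of the labelled tissue were present: the B cell antigen receptor chain Cd79b lay at 5.64, 5.82 and 5.74 in low Se non-GD and at 5.40, 5.49 and 5.45 in normal Se GD, and Tlx1, a transcription factor needed to form the spleen, at -0.16, -0.66 and -0.44 and 0.11, 0.20 and -0.28. In bulk tissue, fewer cells of a type and less of its RNA per cell cannot be told apart.

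The arrays fall into 3 scans by the scan time in the file headers, and none holds both groups compared: scan 1 has all of low Se non-GD together with low Se GD array 1, scan 2 has low Se GD arrays 2 and 3 and normal Se GD arrays 1 and 2, and scan 3 has normal Se GD array 3. With scan as a random block on the 6 arrays the counts dropped to 59 higher and 51 lower, with a correlation of 0.707 within scans, and all 110 are among the genes called above. As no scan holds both groups, that fit cannot tell scan from group. A call kept in it shows a difference that is large beside the spread within groups. With scan as a fixed block, which reaches across scans only through the low Se GD arrays, the counts were 3487 and 1663. Normal Se GD array 3, alone in its scan, adds nothing to the fixed-block differences. Scan 1 is tied to scan 2 through low Se GD array 1 alone. Of 289 called genes on the lists below, 3 kept their call with the random block (Pdia4, Sdf2l1 and Thrb) and 149 with the fixed block. Normal Se GD array 3 had 58.4% of spots well above background against 72.6% to 82.6% on the other 8, and correlated at 0.961 to 0.962 with the other arrays of its group. Low Se non-GD array 3 lay between the other 2 of its group for 78.3% of genes, and low Se GD array 2 for 68.9%, while the others of these groups did so for 10.7% to 20% of genes. Whether these 2 arrays are samples separate from the others of their groups was not tested. Leaving out low Se non-GD array 3 lowered the counts to 3178 and 1802, and leaving out both lowered them to 2034 and 1165. Of 182 called genes that met the naming rule, 38 lost their call when at least 1 of the 9 arrays was left out, and all 38 lost it without low Se non-GD array 3. For those named below the highest adjusted p is given with the array whose absence gave it.

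**Figure D1:**
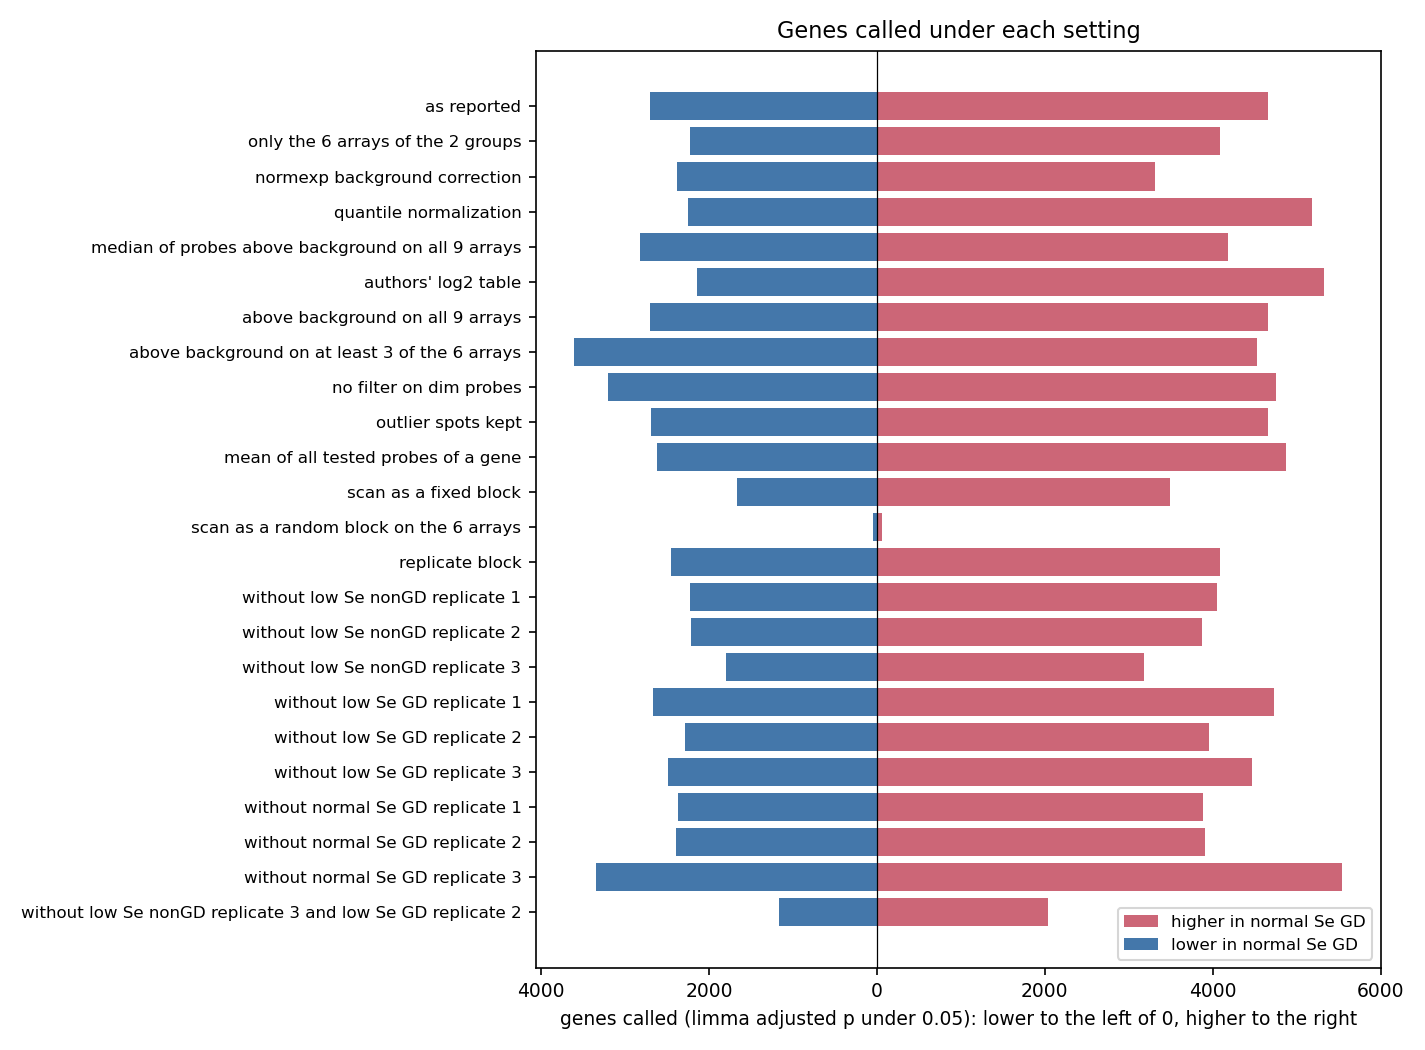
Horizontal bars give the number of genes called higher (red, right of 0) and lower (blue, left of 0) in normal Se GD than in low Se non-GD under each processing setting, at a limma adjusted p under 0.05. The bars for higher genes range from 59 with scan as a random block to 5537 without normal Se GD array 3, and those for lower genes from 51 with that block to 3602 with probes above background on at least 3 of the 6 arrays, against 4654 and 2697 as reported.

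Interferon-stimulated genes were higher in normal Se GD in 30 of the 35 tested of 40, and 0 were lower. Their median difference was 1.28. Ifit1, which binds foreign RNA, read -0.77, -1.88 and -1.13 on low Se non-GD arrays 1 to 3 and 1.89, 1.34 and 1.99 on normal Se GD arrays 1 to 3, a difference of 3.0 ± 0.28 (SE) and an adjusted p of 0.000280 (limma). All 3 normal Se GD arrays lay above all 3 of low Se non-GD, with low Se non-GD array 2 the lowest. Irf7, the transcription factor that amplifies interferon production, read -2.37, -3.37 and -2.83 against 0.37, -0.52 and 1.30, a difference of 3.24 ± 0.43 (adjusted p = 0.000929). Again the groups did not overlap, and normal Se GD array 3 was the highest. Ifit3 rose by 3.17, Ifit3b by 2.83 and Oas2, a sensor that makes oligoadenylates from double-stranded RNA, by 2.76. Ifi44l, which is not on the list, rose by 2.82. The surface protein Bst2, which tethers budding viruses, rose by 1.45 ± 0.26. Among the uncalled members were Isg15 (0.86, adjusted p = 0.0923, with 2 probes of opposite sign) and Isg20 (0.13, adjusted p = 0.818), each with overlapping groups.

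The low Se GD arrays stood with normal Se GD for most of these genes. Ifit1 read 1.65, 1.80 and 1.85 there, and Irf7 -0.41, -0.52 and -0.52. Between the GD groups 5.09% of all genes were higher and 1.91% lower in normal Se GD, and 2 of the 35 interferon-stimulated genes were higher, with a median difference of 0.24. The calls between the GD groups changed much with single arrays. Without low Se GD array 2, 0 genes passed (limma), with 2256 higher and 1086 lower at an unadjusted p under 0.05. There were 61 higher and 21 lower without low Se non-GD array 3, and 68 and 25 without normal Se GD array 1. Without normal Se GD array 3 there were more, 1331 and 731. The count of 30 against low Se non-GD stood between 27 (without low Se non-GD array 3) and 32 when 1 array was left out, and at 22 with scan as a fixed block. By array, the median level of the list ran from 0.16 to 0.54 in low Se non-GD, from 1.65 to 1.76 in low Se GD and from 1.38 to 2.43 in normal Se GD.

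**Figure D2:**
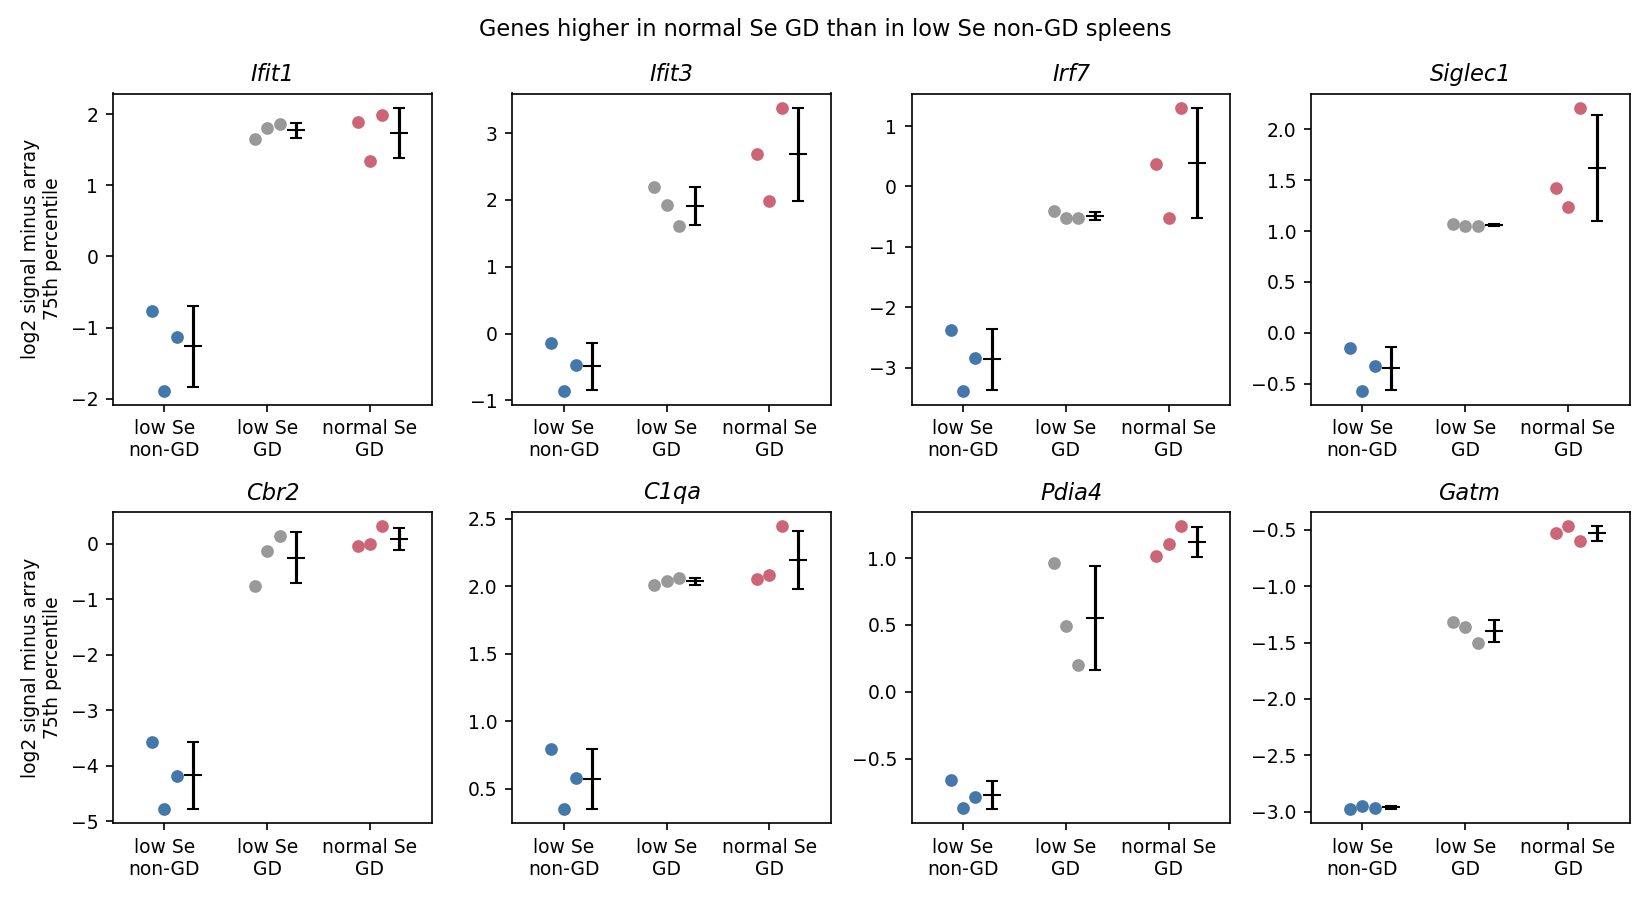
Each panel plots 1 gene: points are single arrays (log2 signal relative to the 75th percentile of the array, left to right in replicate order), and the black marks give the group mean and SD (n = 3), for low Se non-GD (blue), low Se GD (grey) and normal Se GD (red). In all 8 genes the normal Se GD points lie above every low Se non-GD point, for Ifit1 at 1.34 to 1.99 against -1.88 to -0.77.

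Interferon-inducible GTPases, which attack the vacuoles of intracellular microbes, were higher in 10 and lower in 2 of 16 tested. Tgtp2 rose by 1.29 ± 0.19 (adjusted p = 0.00136), the very large GTPase Gvin1 by 1.12 and Irgm1, a regulator of the other GTPases, by 1.1. Tgtp1, a near-identical copy of Tgtp2, went the other way (-1.37, adjusted p = 0.0177), so the pair is uncertain, and its adjusted p was 0.0561 without normal Se GD array 1. Gbp6 read 7.69, 8.09 and 7.89 against 6.15, 5.53 and 5.91 on its brightest probe, a difference of -2.03, while its other probe differed by 0.95. The 2 probes of Gbp6 thus disagree and the gene has no settled direction. Without low Se non-GD array 3 the higher count was 6.

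MHC class II genes, whose products show antigen to helper T cells, were higher in 6 of 12 and lower in 0. Among the raised members were genes that load and edit peptides: H2-DMb2 read 0.16, 0.00 and 0.07 against 1.15, 1.21 and 1.26 (1.13 ± 0.13, adjusted p = 0.000524), and H2-DMa rose by 0.68, H2-Ob by 0.75 and H2-Oa by 0.53. The groups did not overlap for any of these 4. The surface chain H2-Aa differed by 0.09 and H2-Eb2 by -0.16, neither called. The surface chains H2-Eb1 and H2-Ab1 were called higher, so the rise was not confined to the loading genes. Over the fits that leave out 1 array, H2-Eb1 differed by 0.39 to 0.62 and H2-Ab1 by 0.28 to 0.36. The highest adjusted p of H2-Ab1 in those fits was 0.0672, with array 3 of low Se non-GD absent. H2-DMb1, which also serves peptide loading, was not called (0.07 to 0.22 over the same fits). Of the 12, 4 were also higher in normal Se GD than in low Se GD, among them H2-DMb2 (0.85, adjusted p = 0.0163), H2-DMa (0.53, 0.0130) and H2-Oa (0.43, 0.0458). On the class I side 6 of 16 were higher and 0 lower. Nlrc5, the activator of class I genes, rose by 0.74 ± 0.09, the peptide trimmer Erap1 by 0.73 and the heavy chain H2-K1 by 0.52. H2-D1 (-0.08) and H2-T23 (-0.11) were not called. The peptide pump Tap1 (0.76, adjusted p = 0.0439) was not called without low Se non-GD array 2 (adjusted p = 0.113). The class I count was 4 without low Se non-GD array 3.

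Monocyte and macrophage markers were higher in 19 of 26 tested and lower in 0, with a median difference of 0.81. Siglec1, the sialic acid receptor of marginal metallophilic macrophages, read -0.15, -0.57 and -0.33 in low Se non-GD and 1.42, 1.23 and 2.21 in normal Se GD, a difference of 1.97 ± 0.24 (adjusted p = 0.000672). The mannose receptor Mrc1 rose by 1.72 ± 0.33, Ly6c1 by 1.71 ± 0.27 and Adgre1, which encodes F4/80, by 1.49 ± 0.31. For Mrc1, low Se non-GD array 2 was lowest (-0.13, -1.64 and -0.65) and the normal Se GD arrays were close together (0.92, 1.13 and 0.67). Itgam (-0.83, adjusted p = 0.0513, probes of both signs) and Lyz1 (-0.42) were not called. The count held between 19 and 20 when 1 array was left out, and was 9 with scan as a fixed block.

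Red pulp macrophage and iron recycling genes were higher in 10 of 14 and lower in 0. The iron exporter ferroportin, Slc40a1, read 4.02, 3.12 and 3.61 against 4.86, 4.96 and 5.15, a difference of 1.40 ± 0.25. Haem oxygenase Hmox1 rose by 1.17 ± 0.27, the prostaglandin dehydrogenase Hpgd by 1.23 and Slc11a1, a metal pump of the phagosome, by 1.0. Every normal Se GD array lay above every low Se non-GD array for these 4. The biliverdin reductase Blvrb (-0.16) and the ferritin heavy chain Fth1 (-0.18) were not called. Leaving out low Se non-GD array 2 or 3, or normal Se GD array 1 or 2, left 6 higher genes, and the count was 3 with scan as a fixed block.

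Complement genes were higher in 10 of 17 and lower in 0. The 3 chains of C1q, the recognition molecule of the classical pathway made by macrophages, were all raised. C1qa read 0.79, 0.35 and 0.58 against 2.05, 2.09 and 2.44 (1.62 ± 0.14, adjusted p = 0.000216), C1qc differed by 1.36 ± 0.18 and C1qb by 1.09 ± 0.16. C6, a part of the membrane attack complex, rose by 1.15. The proteases C1ra (0.22) and C1s1 (0.03) that act with C1q were not called, though C1s1 was higher in normal Se GD than in low Se GD (0.78, adjusted p = 0.0366). Without low Se non-GD array 2 the higher count was 6. The carbonyl reductase Cbr2, which is on no list, had the second largest rise of all genes tested. It read -3.56, -4.77 and -4.18 against -0.04, 0.00 and 0.32, a difference of 4.26 ± 0.32 (adjusted p = 0.000140), and -0.76, -0.14 and 0.14 in low Se GD.

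Toll-like receptor and NF-kB genes stayed near the background, with 6 of 23 higher and 1 lower. The raised members included the RNA sensors Tlr7 (1.33 ± 0.10, adjusted p = 0.000121) and Tlr3 (1.13 ± 0.20), the shared adaptor Myd88 (1.08) and the lipopolysaccharide receptor Tlr4 (0.74). Tlr1 (-0.21) and Tlr2 (0.49) were not called. The inhibitor Nfkbie (-0.62, adjusted p = 0.0441) lost its call when low Se non-GD array 2 was left out (adjusted p = 0.130). Dendritic cell markers were higher in 10 of 20 and lower in 1. Itgax, which encodes CD11c, read 0.17, 0.23 and 0.17 against 1.22, 1.26 and 1.43 (1.11 ± 0.09, adjusted p = 0.000190) and 0.51, 0.64 and 0.75 in low Se GD, so that low Se GD lay between the groups. The growth factor receptor Flt3 rose by 1.14 ± 0.11, and fascin, Fscn1, a marker of mature dendritic cells, by 1.23 ± 0.10. Of the dendritic cell genes 6 were also higher in normal Se GD than in low Se GD, among them Itgax (0.67, adjusted p = 0.0152) and Fscn1 (0.87, 0.0122). Siglech, a marker of plasmacytoid cells, had probes of both signs and was not called without low Se non-GD array 3 (adjusted p = 0.0928 against 0.0400). Zbtb46 (-0.03) and Irf4 (0.20) were not called.

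Chemokines and their receptors were higher in 10 of 23 and lower in 0. Cxcl10, which draws activated T cells, read -0.32, -0.55 and -0.47 against 1.6, 1.32 and 2.02, a difference of 2.09 ± 0.33 (adjusted p = 0.00188). Its low Se GD values were -0.18, 0.79 and 1.20, and array 1 of that group, the one scanned with the controls, was the lowest. Cxcl9 rose by 1.1 ± 0.22 and Ccl6 by 1.25 ± 0.24. Cxcl9 was higher than in low Se GD too (0.92, adjusted p = 0.0482). Ccl2 (0.89) and Ccl3 (0.10) were not called. With scan as a fixed block 3 chemokine genes were higher, and Cxcl10 differed by 0.74 (adjusted p = 0.0755).

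Granulocyte lists split by gene. Of 19 neutrophil genes 6 were higher and 1 lower. Among the higher genes were the granule proteases Prtn3 (1.37 ± 0.15), Ctsg (1.22 ± 0.23) and Elane (0.89 ± 0.10), while the granule peroxidase Mpo (-0.18, adjusted p = 0.547) was not called. S100a8 (0.22) and S100a9 (-0.21), which are abundant in mature neutrophils, were not called. The antimicrobial peptide gene Camp (-0.36, adjusted p = 0.0290) lost its call without normal Se GD array 2 (adjusted p = 0.0897), and the collagenase Mmp9 (1.01) without low Se non-GD array 2 (0.086). Among 11 mast cell, basophil and eosinophil genes 6 were higher and 2 lower. The basophil proteases Prss34 and Mcpt8 rose by 0.93 and 0.65 and the eosinophil granule protein Prg2 by 0.81. The transcription factor Gata2 read -0.13, -0.46 and -0.30 against -1.69, -1.86 and -2.0, a difference of -1.56 (adjusted p = 0.000156), and Il5ra differed by -0.77. Mcpt4 (-0.32) and Tpsb2 (-0.46) were not called. The counts were 1 higher and 2 lower for this list with scan as a fixed block. The eosinophil receptor Ccr3 rose by 1.36 (adjusted p = 0.0206) and was not called without normal Se GD array 2 (adjusted p = 0.0598).

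B cell markers as a whole did not stand out, with 6 of 27 higher, 2 lower and a median difference of -0.04. The antigen receptor chain Cd79a differed by 0.19 (adjusted p = 0.332) and was not called. The raised members included Cd9 (0.90 ± 0.08, adjusted p = 0.000213), Fcrla (0.61 ± 0.09), Ly86 (0.60 ± 0.11) and the B lineage factor Pax5 (0.60 ± 0.18). The inhibitory receptor Cd22 differed by -0.94 and Cd79b by -0.29. Cd79b turned sign with quantile normalization (0.13) and in the authors' deposited table (0.14), neither called, so its direction depends on the scaling. Without low Se non-GD array 3 the counts were 3 higher and 0 lower, with Cd22 at an adjusted p of 0.0538 and Cd79b at 0.0912. Pax5 was not called without low Se non-GD array 1 (adjusted p = 0.0803). The mature B cell receptors Fcer2a and Cr2, picked after their values were seen, show where low Se GD differs: Fcer2a read 0.76, 0.94 and 0.82 in low Se non-GD, -0.10, -0.12 and -0.14 in low Se GD and 0.66, 0.78 and 1.02 in normal Se GD. Cr2 read 4.11, 4.41 and 4.25, 3.20, 3.53 and 3.74 and 3.81, 3.94 and 4.06 in the same order. Normal Se GD thus differed from low Se non-GD by -0.02 for Fcer2a and -0.32 for Cr2 (adjusted p = 0.896 and 0.128). Fcer2a was higher than in low Se GD (0.94, adjusted p = 0.0122), and 6 of the 27 B cell genes were higher in it than in low Se GD.

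Plasma cell and secretory pathway genes were higher in 11 of 23 and lower in 1. The protein folding enzyme Pdia4 read -0.66, -0.87 and -0.79 against 1.02, 1.11 and 1.24 (1.89 ± 0.18, adjusted p = 0.000299), and the chaperone partner Sdf2l1 read -0.96, -1.13 and -1.13 against 0.42, 0.48 and 0.60 (1.57 ± 0.09, adjusted p = 4.95e-05). For both, the spread within each group was small beside the difference. Both kept their call with scan as a random block (adjusted p = 0.0400 and 0.0420), which cannot tell scan from group. Xbp1, the transcription factor of secretory cells, rose by 1.11 ± 0.13, and Sdc1, which encodes the plasma cell marker CD138, by 1.19 ± 0.21. Sec61b, a subunit of the translocation channel, had probes of both signs. Prdm1, which drives plasma cell differentiation, differed by -0.09 (adjusted p = 0.815), and by 0.62 with scan as a fixed block (adjusted p = 0.0213). Of 10 germinal centre genes 3 were higher: Basp1 (0.79 ± 0.12), Plxnb2 (0.70 ± 0.12) and S1pr2 (0.56 ± 0.12), a receptor that keeps B cells in the germinal centre. Bcl6 (0.15), the germinal centre regulator, was not called.

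T cell markers were higher in 4 of 23, below the background share, and lower in 0. The antigen receptor chains Cd3d (-0.19) and Cd3e (0.15) were not called. The costimulatory receptors Icos (0.89 ± 0.13) and Cd28 (0.84 ± 0.17) rose, as did Tcf7 (0.54), a transcription factor of naive cells. Tcf7 was no longer called when low Se non-GD array 3 was left out (adjusted p = 0.085). The count ran from 2 to 6 higher and from 0 to 4 lower when 1 array was left out, with 2 higher and 4 lower without low Se non-GD array 1 and 6 higher without array 2 of that group. Regulatory T cell and checkpoint genes were higher in 4 and lower in 3 of 15. The checkpoint receptor Lag3 read -3.15, -2.85 and -2.96 against -1.56, -1.75 and -1.13 (1.51 ± 0.16, adjusted p = 0.000426) and was also higher than in low Se GD (0.78, adjusted p = 0.0307). The ligand Cd274, known as PD-L1, rose by 0.57 ± 0.11. Foxp3, the regulatory T cell factor, differed by -0.25 and Ctla4 by 0.29, neither called. Il2ra (0.46) was not called without normal Se GD array 2 (adjusted p = 0.116). Pdcd1 (-2.40) and Entpd1 (-3.79) were lower, and both follow the array order of an added control described at the end, whereas Tnfrsf9 (-0.60 ± 0.10) did not.

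Of 19 T helper genes 4 were higher and 3 lower. The cytokines Il2 (0.61 ± 0.13) and Il4 (0.59 ± 0.08) rose, with Il4 at -3.23, -3.19 and -3.28 against -2.62, -2.59 and -2.72. The receptor chain Il4ra fell by 0.46 (adjusted p = 0.00246) and was lower than in low Se GD as well (-0.61, adjusted p = 0.0122). The receptor Cxcr3 of type 1 cells rose by 0.69 ± 0.13, but their regulator Tbx21 (0.36) and cytokine Ifng (0.42) were not called. Stat3 rose by 0.59, with an adjusted p of 0.0762 without low Se non-GD array 1 against 0.0255. Il1rl1 (-0.86, adjusted p = 0.0479) had overlapping groups, and its adjusted p was 0.130 without low Se non-GD array 3. Stat4 (-1.63) was lower and follows the array order of the added control. Natural killer and cytotoxic genes were higher in 11 of 19 and lower in 1. The protease granzyme B, Gzmb, read -2.81, -3.21 and -3.08 against -0.98, -1.53 and -0.07 (2.17 ± 0.36), granzyme A, Gzma, rose by 1.88 ± 0.35, and the activating receptors Klrk1 and Ncr1 by 1.36 ± 0.13 and 1.06 ± 0.15. Groups did not overlap for these 4 genes, and Klrk1 was higher than in low Se GD (0.75, adjusted p = 0.0216). Gzmk (-0.05) and Klra9 (0.76) were not called, and the 2 probes of Klra7 disagreed in sign. With scan as a fixed block the higher count was 6.

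**Figure D3:**
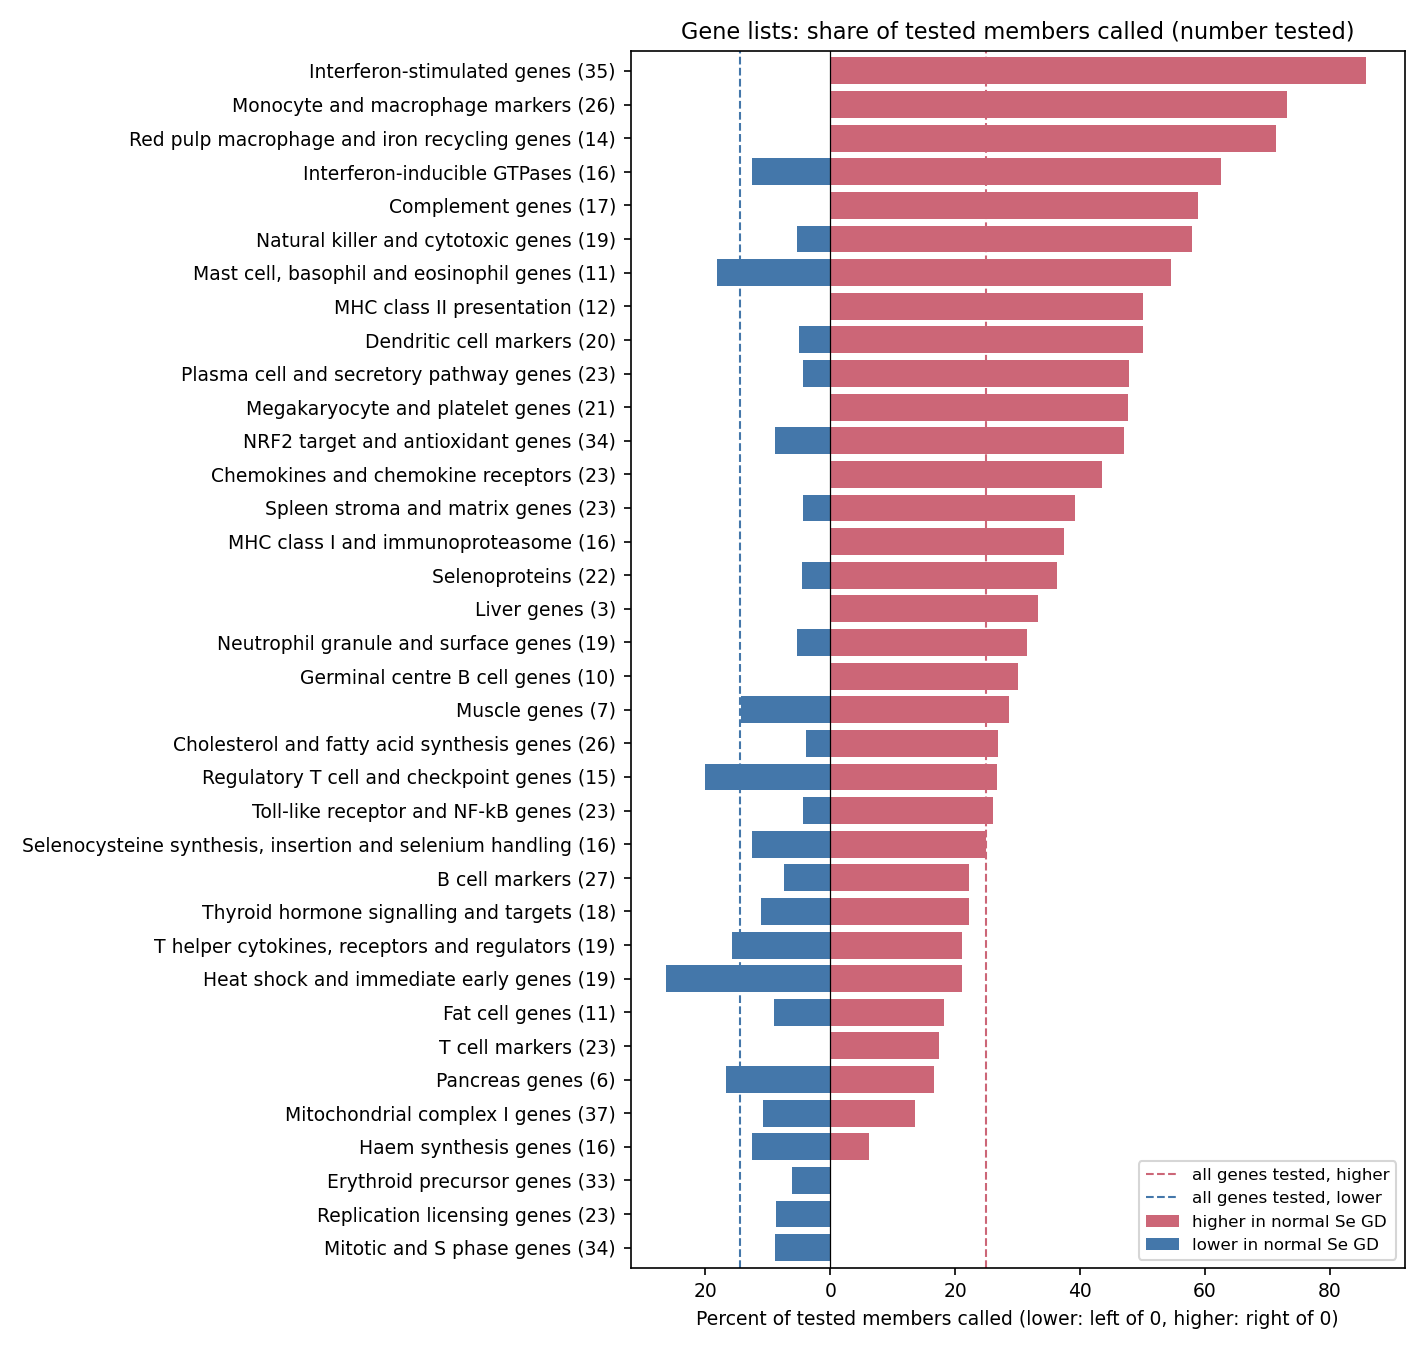
Bars give, for each of the 36 lists (number of tested members in brackets), the percent of tested members called higher (red, right of 0) and lower (blue, left of 0) in normal Se GD than in low Se non-GD, at a limma adjusted p under 0.05. Dashed lines mark the shares over all 18591 genes, 25.0% higher and 14.5% lower; interferon-stimulated genes reach 85.7% higher, while erythroid, replication licensing and mitotic genes have 0 higher.

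Selenoprotein genes were higher in 8 of 22 tested and lower in 1, against the background of 25.0% and 14.5%, with a median difference of 0.28. Dio2 and Sephs2 were not tested, each being well above background on 5 of the 6 arrays. Selenop, the secreted carrier of selenium, read 4.31, 4.32 and 4.29 in low Se non-GD, 5.89, 5.52 and 5.24 in low Se GD and 5.19, 5.30 and 4.66 in normal Se GD. Normal Se GD lay above low Se non-GD without overlap (0.74 ± 0.20, adjusted p = 0.0199), but 3 of 3 low Se GD values exceeded the normal Se GD mean of 5.05. The difference between the GD groups was -0.50 (adjusted p = 0.163). Selenop was not called without normal Se GD array 2 (adjusted p = 0.0629).

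Among the antioxidant selenoenzymes, Gpx1, the cytosolic peroxidase whose message is known to fall in selenium deficiency, read 5.46, 4.34 and 4.95 against 5.50, 5.42 and 5.84 (0.67 ± 0.26, adjusted p = 0.0688). The groups overlapped, since low Se non-GD array 1 was above normal Se GD array 2, and low Se GD read 5.73, 5.79 and 5.90. Plasma peroxidase Gpx3 differed by 0.92 ± 0.37 (adjusted p = 0.0796), the phospholipid peroxidase Gpx4 by 0.02 and Gpx2 by 0.07, none called. The methionine sulfoxide reductase Msrb1 rose by 0.66 ± 0.09 (adjusted p = 0.00106), from 2.81, 2.79 and 2.77 to 3.38, 3.36 and 3.61. The thioredoxin reductases went different ways. Cytosolic Txnrd1 rose by 0.40 ± 0.10 (adjusted p = 0.0146, and 0.0554 without low Se non-GD array 3), and Txnrd3 differed by -0.01. Mitochondrial Txnrd2 read 2.87, 1.90 and 2.45, 2.66, 2.82 and 2.94 and 1.80, 1.88 and 2.03 in low Se non-GD, low Se GD and normal Se GD. It was not called against low Se non-GD (-0.51, adjusted p = 0.101) and was the only selenoprotein called between the GD groups (-0.90, adjusted p = 0.0481).

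Of the selenoproteins of the endoplasmic reticulum, Selenom rose by 0.75 ± 0.11, Selenoi, an enzyme of phospholipid synthesis, by 0.68 ± 0.11, Selenot by 0.64 ± 0.14 and Selenok by 0.40 ± 0.09. Selenof (0.29), Selenos (-0.17) and Selenon (-0.08) were not called. Selenoo, a mitochondrial protein, rose by 0.27 ± 0.08, with an adjusted p of 0.0879 without low Se non-GD array 3 against 0.0228. Selenoh (-0.06), Selenov (0.45) and Selenow (0.13) were not called. Of the deiodinases, Dio3, which inactivates thyroid hormone, read -2.89, -2.38 and -2.63 against -3.28, -3.48 and -3.14, and fell by 0.67 (adjusted p = 0.00820). Dio1, which activates it, differed by -0.02. The higher count ran from 5 without low Se non-GD array 3 to 11 without low Se GD array 1, and was 5 with scan as a fixed block.

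**Figure D4:**
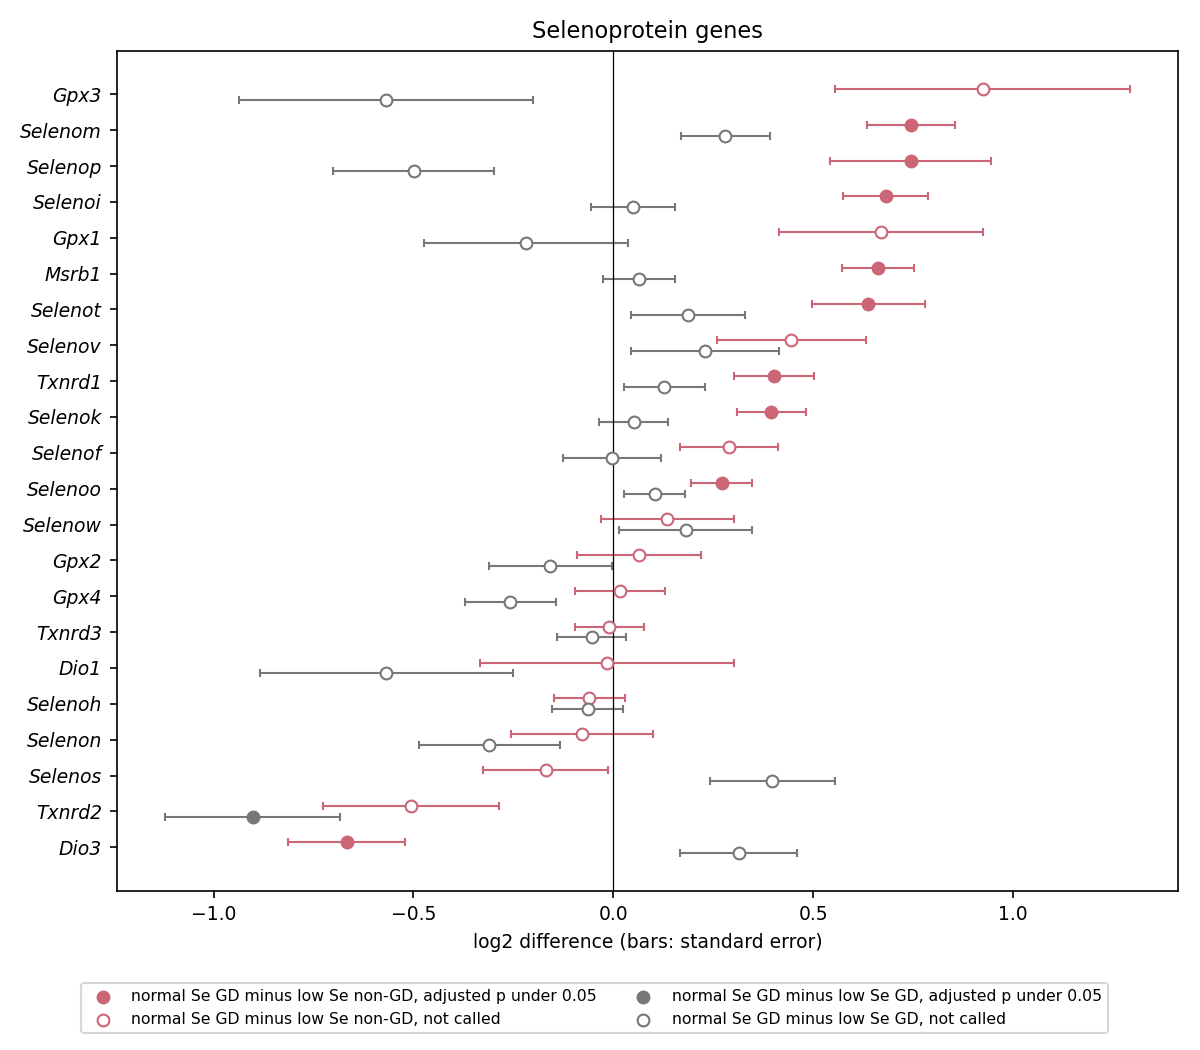
Log2 differences with standard errors (horizontal axis) for the 22 tested selenoprotein genes: red, normal Se GD minus low Se non-GD; grey, normal Se GD minus low Se GD. Filled points passed a limma adjusted p under 0.05, which 8 genes did to the right of 0 and Dio3 to the left in red, and Txnrd2 alone did in grey.

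The machinery that makes and inserts selenocysteine was near the background, with 4 higher and 2 lower of 16. Elavl1, an RNA-binding protein, rose by 1.17 ± 0.10 (adjusted p = 0.000240) and the exporter Xpo1 by 0.52. Secisbp2 (-0.03) and Eefsec (-0.04), the factors that place selenocysteine at the ribosome, were not called. Sepsecs, the synthase, rose by 0.36 and Sephs1 by 0.53. Lrp8, a receptor for Selenop, differed by -0.55. These 3 lost their calls on leaving out 1 array, with adjusted p of 0.0778 for Sepsecs without low Se non-GD array 3, and of 0.127 for Sephs1 and 0.069 for Lrp8 without array 2 of that group. Secisbp2l (-1.58) was lower and follows the array order of the added control.

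NRF2 target and antioxidant genes that need no selenium were higher in 16 of 34 and lower in 3. Glutathione reductase, Gsr, read 0.13, 0.00 and 0.01 against 1.21, 1.23 and 1.38 (1.23 ± 0.08, adjusted p = 0.000103), with low Se GD between at 0.94, 1.02 and 1.0. The mitochondrial peroxiredoxin Prdx3 rose by 0.81 ± 0.18 and the cystine transporter Slc7a11 by 0.79 ± 0.20, the latter with an adjusted p of 0.0518 without low Se non-GD array 3. Mitochondrial thioredoxin Txn2 read 4.12, 4.22 and 4.15, 4.02, 3.99 and 4.01 and 3.55, 3.47 and 3.41 in low Se non-GD, low Se GD and normal Se GD. It was lower in normal Se GD than in either (-0.69 ± 0.08, adjusted p = 0.000499, and -0.53, adjusted p = 0.0158). Txn2 ranks the arrays as the added control described at the end does. Its reductase Txnrd2 was lower against low Se GD alone. Sulfiredoxin Srxn1 fell by 0.49, and Prdx2, abundant in red cells, by 0.88 (adjusted p = 0.0493, and 0.133 without low Se non-GD array 3). The regulators Nfe2l2 (-0.02) and Keap1 (-0.10) were not called. The higher count was 8 without low Se non-GD array 3 and 7 with scan as a fixed block.

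Thyroid hormone genes were at the background, with 4 higher and 2 lower of 18. The receptor Thrb read -4.73, -4.67 and -4.63 against -3.31, -3.34 and -3.43 and -3.23, -3.40 and -3.75 in low Se GD, a rise of 1.31 ± 0.13 (adjusted p = 0.000342, and 0.0420 with scan as a random block). The other receptor, Thra, read 2.11, 1.79 and 1.94 against 1.33, 1.32 and 1.42, and fell by 0.59 (adjusted p = 0.00283). It was also lower than in low Se GD (-0.63, adjusted p = 0.0181), at 1.89, 2.02 and 2.06 there. The co-repressor Hr, which thyroid hormone is known to induce in brain, rose by 1.20 ± 0.16, and the coactivator Ncoa2 by 0.50. The co-repressor Ncor1 rose by 0.38 (adjusted p = 0.0212, and 0.0752 without low Se non-GD array 3). Rxra (0.15) and Rxrb (0.01) were not called.

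Red cell precursor and proliferation lists had 0 higher genes among 33 erythroid, 23 licensing and 34 mitotic genes, against 25.0% of all genes. Lower were 2 erythroid genes, Add2 (-1.22 ± 0.23), a part of the red cell membrane skeleton, and the water channel Aqp1 (-0.95 ± 0.26). Add2 read 2.19, 1.18 and 1.79 against 0.46, 0.43 and 0.60, and 1.57, 1.74 and 1.82 in low Se GD. The globins Hba-a1 (0.03) and Hbb-bt (0.15) were not called. These lists varied among the controls: the median erythroid level was 2.64, 1.18 and 1.97 on low Se non-GD arrays 1 to 3, and 1.53, 1.5 and 1.93 on normal Se GD arrays 1 to 3. Array 2 of the controls was thus lowest, and without it 16 of 33 erythroid, 7 of 16 haem synthesis and 11 of 34 mitotic genes were lower in normal Se GD, against 2, 2 and 3 with it. Without low Se non-GD array 1 instead, 3 erythroid genes were higher, and the adjusted p of Aqp1 was 0.0666 without array 3.

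In haem synthesis, Uros (-0.78) and the glycine importer Slc25a38 (-0.71) were lower, and both lost their calls on leaving out 1 array (adjusted p = 0.127 without low Se non-GD array 1 and 0.0974 without normal Se GD array 2). The rate-limiting enzymes Alas1 (0.08) and Alas2 (0.18) were not called. The proliferation marker Mki67 read 5.32, 4.15 and 4.86 against 3.88, 3.87 and 4.10 (-0.82 ± 0.29, adjusted p = 0.0522) without overlap and was not called. Foxm1 (-0.92) and the kinetochore motor Cenpe (-0.85) were lower, with adjusted p of 0.0583 without low Se non-GD array 3 and 0.0989 without array 1. Top2a (-0.10) was not called, and Ndc80 (-3.14) follows the array order of the added control. Of the licensing genes, the helicase subunits Mcm2 (0.04) and Mcm3 (-0.11) were not called, although Mcm3 was lower than in low Se GD (-0.77, adjusted p = 0.0287). The polymerase subunit Pole fell by 0.57 and Gins3 by 0.71, the latter with an adjusted p of 0.123 without low Se non-GD array 2. Megakaryocyte and platelet genes were higher in 10 of 21 and lower in 0. The platelet chemokine Ppbp read 2.50, 1.82 and 2.24 against 3.39, 3.37 and 3.93 (1.38 ± 0.23), and the adhesive glycoproteins Thbs1 and Gp5 rose by 1.27 ± 0.17 and 1.31 ± 0.29. The integrin chains Itga2b (0.49) and Itgb3 (0.13) were not called. P2ry1 rose by 1.15 (adjusted p = 0.0342, and 0.0751 without normal Se GD array 1). With scan as a fixed block 2 platelet genes were higher.

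Stromal and matrix genes were higher in 9 of 23 and lower in 1. The endothelial cadherin Cdh5 read -0.30, -0.18 and -0.39 against 0.99, 1.04 and 0.90 and 1.07, 0.96 and 0.81 in low Se GD (1.26 ± 0.10, adjusted p = 0.000149). The growth factor receptor Pdgfra of fibroblasts rose by 1.26 ± 0.27, the sinus endothelial receptor Stab2 by 0.90 ± 0.12 and the laminin chain Lama2 by 0.85 ± 0.21. Wt1 (0.67) was not called, and Nr2f1 (-3.16) was lower in the array order of the added control. Cholesterol and fatty acid genes were near the background, with 7 higher and 1 lower of 26. The synthase Hmgcs1 rose by 0.82 and the regulator Srebf1 by 0.81, while the 2 probes of Srebf2 disagreed. The cyclase Lss fell by 1.43, and the epoxidase Sqle (0.23) was not called.

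Complex I genes were mixed, with 5 of 37 higher and 4 lower. Ndufc2 (0.67 ± 0.07), Ndufa11 (0.50), Ndufa4 (0.45) and Ndufc1 (0.44) rose, and Ndufb3 (-0.51 ± 0.10) and Ndufs5 (-0.36 ± 0.07) fell. Ndufb7 (-0.45) and Ndufb10 (-0.40) were lower too, but not without normal Se GD array 1 (adjusted p = 0.0672 for Ndufb7) or low Se non-GD array 3 (0.0763 for Ndufb10). Ndufa1 (0.06) and Ndufa2 (0.04) were not called. Heat shock and immediate early genes were higher in 4 and lower in 5 of 19. Junb (1.69 ± 0.19), Ier2 (1.31 ± 0.11), Fos (1.05 ± 0.14) and Jun (0.58) rose, while Fosb (-2.04 ± 0.34) and the chaperone Hspa1a (-1.75 ± 0.39) fell. Egr2 (-3.19) was lower in the array order of the added control, and Egr1 (0.13) and Ier3 (0.18) were not called. The mitochondrial chaperone Hspd1 fell by 0.54 (adjusted p = 0.0163, and 0.0527 without low Se non-GD array 3).

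Of 18 fat cell genes 11 were tested, with 2 higher and 1 lower, and the fatty acid carrier Fabp4 read 1.38, -1.63 and 0.57 in low Se non-GD, 5.50, 4.46 and 2.11 in low Se GD and -1.04, -0.96 and -0.91 in normal Se GD. The 3 low Se non-GD values straddle those of normal Se GD (-1.08 ± 0.94, adjusted p = 0.396). Of 19 pancreas genes 6 were tested, with 1 higher and 1 lower, 3 of 11 liver genes, with 1 higher and 0 lower, and 7 of 12 muscle genes, with 2 higher and 1 lower. The median level of the tested pancreas genes lay between -2.84 and -2.45 across low Se non-GD and between -2.75 and -2.05 across normal Se GD. Their part in the results above was not tested.

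The largest falls, and some of the largest rises, belong to a different set of genes. Beside Cbr2 and the interferon-stimulated genes, the 12 largest rises that met the naming rule hold Rn28s1, a ribosomal RNA, which read 0.83, 0.45 and 0.56 in low Se non-GD, 5.59, 4.12 and 3.0 in low Se GD and 5.62, 5.99 and 4.93 in normal Se GD. Its difference was 4.90 ± 0.58 (adjusted p = 0.000629, and 0.0352 with scan as a random block). Of the other 11, 4 genes, Gfra4 (3.81), Trhr2 (3.91), Wwc1 (3.88) and Sh3bp5 (3.08), rank the arrays within both GD groups as Rn28s1 does, which 8.94% of all tested genes do. Trhr2 was not called without normal Se GD array 2 (adjusted p = 0.0544). Ribosomal RNA is not polyadenylated. These 4 genes are named together because they share the array order of its probe, and its part in their rise was not tested.

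The 11 genes reported here from among the 12 largest falls all rank the arrays as an added control does. Btg4 read 4.04, 5.37 and 4.74 against 1.53, 0.50 and -1.72 (-4.62 ± 0.78, adjusted p = 0.00265), and the olfactory receptor Olfr819 read 2.03, 3.45 and 2.83 against -0.67, -1.6 and -3.36 (-4.65 ± 0.70). The others were Papolb (-4.63), Skint1 (-4.58), Ctf1 (-4.53), Cts7 (-4.48), Igsf5 (-4.42), Zfp369 (-4.32), Tefm (-4.27), Clmp (-4.26) and Zkscan4 (-4.23). The control spots named E1A r60 a107, which carry adenoviral sequence and no mouse gene, read 4.72, 5.84 and 5.34 on low Se non-GD arrays 1 to 3 and 2.36, 1.42 and 0.82 on normal Se GD arrays 1 to 3. This control was picked after values were seen, and it fell most of the E1A controls. The others differed by -2.85 (a104), -2.77 (a97), -0.80 (r60 3), -0.77 (n9), -0.11 (n11), -0.04 (a135), -0.004 (a22), 0.29 (a20) and 0.89 (r60 1). In a104 and a97 the order in low Se non-GD was that of a107. In normal Se GD array 3 was their highest, with few of their spots above background there. Array 2 was highest and array 1 lowest in low Se non-GD, and array 1 highest and array 3 lowest in normal Se GD, in a107 and in each of the 11 genes. This order in both groups held for 7.55% of all tested genes, 30.3% of the lower genes, 52.1% of those lower at least 2-fold and 90.6% of the 299 lower at least 8-fold. It held for 1.55% of the higher genes. The part of whatever moved the control in these falls was not tested.

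**Figure D5:**
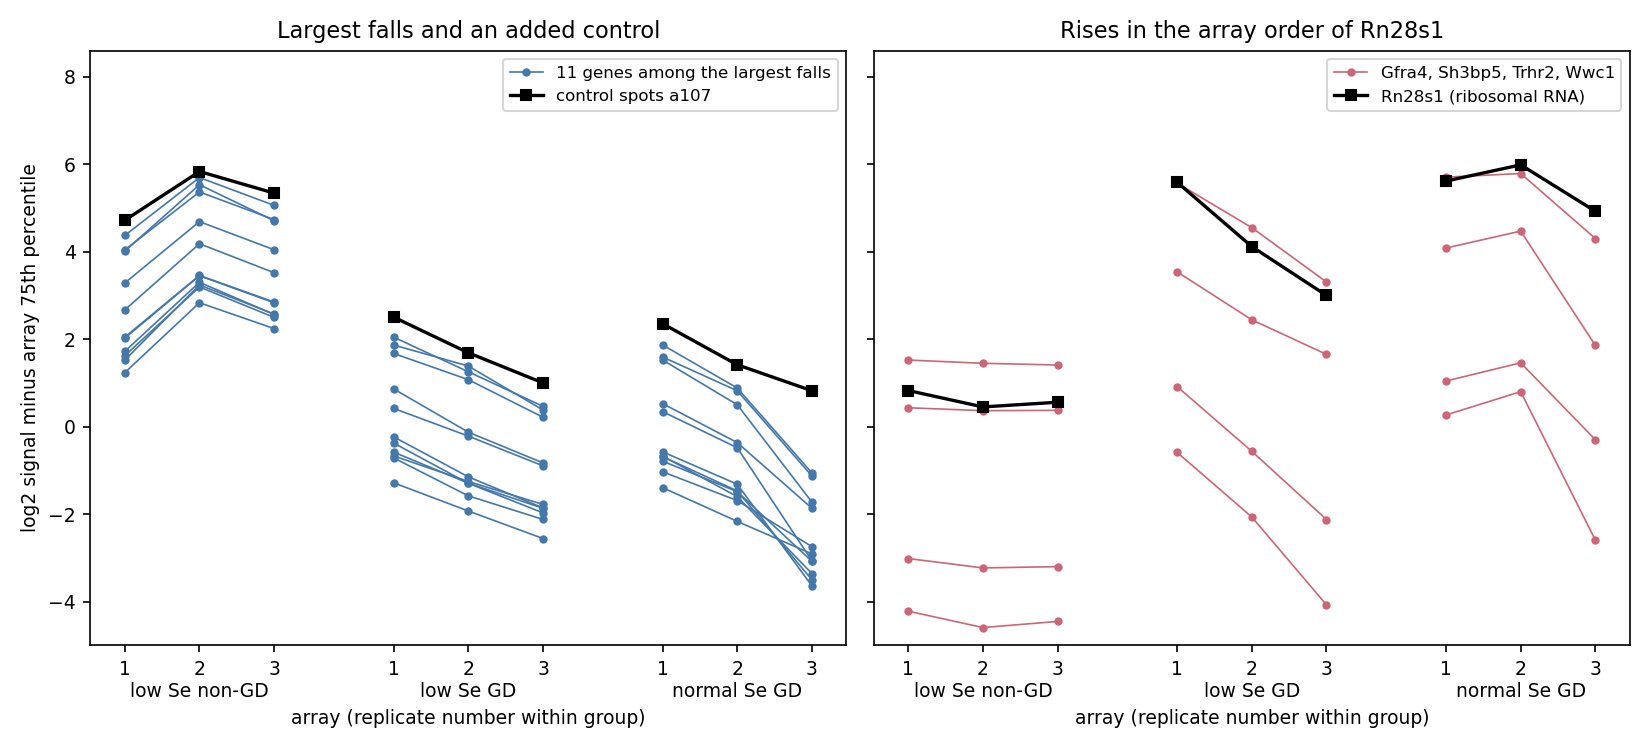
Left, log2 signal minus the 75th percentile of the array for 11 genes among the largest falls (blue) and for the control spots a107 (black squares); right, the same for Gfra4, Sh3bp5, Trhr2 and Wwc1 (red) and the ribosomal RNA Rn28s1 (black squares), on arrays 1 to 3 of each group. The blue lines and the control peak together on low Se non-GD array 2 (5.84 for the control). The red genes were drawn because they share the array order of Rn28s1 in both GD groups. The largest rises that do not share it are not drawn.

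The genes with the smallest p-values were picked after their values were seen, so a narrow spread within groups is part of the choice. Gatm, which makes the precursor of creatine, read -2.97, -2.95 and -2.97 in low Se non-GD, -1.32, -1.36 and -1.5 in low Se GD and -0.53, -0.47 and -0.60 in normal Se GD. It rose by 2.43 ± 0.08 (adjusted p = 2.21e-05) and was also higher than in low Se GD (0.86, adjusted p = 0.0122). Integrin alpha V, Itgav, rose by 1.90 ± 0.08, the death ligand Tnfsf10 by 1.72 ± 0.07, the ubiquitin ligase Cbl by 1.35 ± 0.08 and Tmem154 by 1.30 ± 0.07, each with low Se GD between the other groups and each higher than in it. With scan as a random block Gatm, Itgav, Tnfsf10, Cbl and Tmem154 stayed past the threshold (adjusted p from 0.0237 to 0.0420). That block cannot tell scan from group. On the lower side the brain sodium channel Scn1a read -0.02, -0.15 and 0.05 against -2.90, -3.16 and -2.89 (-2.94 ± 0.13, adjusted p = 2.37e-05) and Olfr649 -0.27, -0.37 and -0.32 against -2.66, -2.88 and -2.94 (-2.51 ± 0.10). Both kept their call with the random block (adjusted p = 0.0316 and 0.0316). Neither had the array order of the control in low Se non-GD, but their arrays there lay close together, so that order says little. The control fell between the groups too, and its part in these 2 falls was not tested.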

How the data were processed

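Spleen RNA of 9 arrays in 3 groups of 3 was measured on an Agilent mouse array, and 6 arrays enter the comparison. Per the file headers, the authors deposited output of Agilent Feature Extraction (version 11.0.1.1) with the processed intensity of each spot, its median signal and background, and other marks of 0 or 1 for spots well above background, saturated or outlying. The authors also deposited a table of log2 values for 39485 probes (median 6.435), whose scaling the sources used here do not give. There, 6 of 9 columns matched their own array best, while the 3 of low Se non-GD matched other arrays within the group, so it serves only as an alternative.

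The processed intensity was put on the log2 scale, less the 75th percentile of the 43020 non-control spots (39429 probes) of the array. Probes above background on all 6 arrays were kept (22364), outlying spots were dropped (46 probes lost), and the probe with the highest mean stood for each of 18591 genes. Of all probes 27228 were named by accession from RefSeq (GRCm38.p6), and 12201 kept the file's name. The 9 arrays were fitted together with limma 3.58.1 in R 4.3.3 (6 residual degrees of freedom, prior 2.2, Benjamini-Hochberg threshold 0.05). The fit was also run on simulated data with independent errors and no scan effect, which says nothing on the part of the scans here. Precision is limited by the 3 arrays of each group.

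Named were the 12 largest changes in each direction with non-overlapping groups, every tested selenoprotein, and for each list up to 4 called genes in each direction and 2 uncalled ones; some genes that met this rule are not reported here. Members and lists were chosen with earlier results of these data known. Alternatives covered background correction, scaling, filters, probe choice, scan as a block, the replicate number as a block and leaving out arrays. Normexp (offset 50) used the median signal, since the tables hold no mean signal. By the array labels, same-numbered arrays of different groups showed no sign of pairing.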

Additional observations from a re-analysis of the deposited data

Results flagged for a closer look

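The changes of the 2 GD groups against low Se non-GD differed for 34 of the 261 genes that met the naming rule, by the limma test of normal Se GD against low Se GD (adjusted p under 0.05). Both changes share the 3 low Se non-GD arrays, so the test is the difference between the GD groups, and scans 1 to 3 are spread unevenly over them. Of all genes tested, 5.09% were higher and 1.91% lower in normal Se GD by this test. The naming rule uses the same normal Se GD arrays, so the share among named genes is not independent of it.

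Higher in normal Se GD than in low Se GD, in log2 units, were Slc7a11 (0.98), Cxcl9 (0.92), Fscn1 (0.87), H2-DMb2 (0.85), Tlr3 (0.82), Lag3 (0.78), C1s1 (0.78), Pax5 (0.76), Klrk1 (0.75), Mcpt4 (0.74), Sdf2l1 (0.69), Itgax (0.67), Tnni2 (0.57), Serpina1a (0.55), H2-DMa (0.53), Basp1 (0.53), Irf4 (0.51), Cd274 (0.51), Ier3 (0.50), Gbp10 (0.43), H2-Oa (0.43) and Il4 (0.37). Lower in normal Se GD were Fabp4 (-4.99), Aqp1 (-1.31), Add2 (-1.21), Uros (-1.15), Txnrd2 (-0.90), Mcm3 (-0.77), Thra (-0.63), Il4ra (-0.61), Tnfrsf9 (-0.54), Txn2 (-0.53), Dgat2 (-0.41) and Ndufs5 (-0.30). Without low Se GD array 2, no gene of the whole table passed this test (limma), with 2256 higher and 1086 lower at an unadjusted p under 0.05. The part of red cell and fat cell content in these differences was not tested.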

How the results depend on the processing

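The counts of 4654 higher and 2697 lower genes against low Se non-GD stayed within 1.5 times under background correction, scaling, filters and probe choice. They were 59 and 51 with scan as a random block and 2034 and 1165 without low Se non-GD array 3 and low Se GD array 2, an alternative chosen after seeing the data, and the lower count was 1663 with scan as a fixed block. Leaving out 1 array gave 3178 to 5537 higher and 1802 to 3344 lower genes. The share of calls that were higher, 63.31%, ran from 53.64% (random block) to 71.32% (the authors' deposited table).

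Against low Se GD, 946 genes were higher and 356 lower. The higher count was 535 with normexp, 501 with quantile normalization, 507 with median scaling, 395 in the authors' deposited table, 355 with probes above background on at least 3 arrays and 2182 with scan as a fixed block. The lower count was 170 in the authors' deposited table, 102 with that looser filter and 1155 with scan as a fixed block. Without a filter both counts were 0 (limma; 3986 higher and 1592 lower at an unadjusted p under 0.05), and without the 2 arrays named above both were 0 (1686 and 699). Leaving out 1 array gave 0 to 1331 higher and 0 to 731 lower genes, with 0 of each without low Se GD array 2. The cause was not tested.

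Same-numbered arrays of different groups correlated at -0.36 to 0.236 in their deviations (9 pairs). Differently numbered ones correlated at -0.408 to 0.412 (18 pairs), so the array labels gave no sign of pairing. In the authors' deposited table the low Se non-GD columns matched other arrays of their group best. The check therefore does not cover pairing under another numbering. With the replicate block the counts were 4085 higher and 2452 lower against low Se non-GD, and 0 and 0 against low Se GD (2778 and 1560 at an unadjusted p under 0.05).

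Of 261 named genes, 4 reversed somewhere: Cd79b with quantile normalization (0.13) and in the authors' deposited table (0.14), Gzmk with scan as a fixed block (0.62) and without normal Se GD array 3 (0.42, from -0.30 to 0.42 over the fits that leave out 1 array), H2-D1 in the authors' deposited table (0.41), and Prdm1 (0.62) with scan as a fixed block. The median of 9 lists changed sign with scan as a fixed block, out of 39. These 39 are the 36 lists above and others added after values were seen. Among the 9 were 2 of the added lists, olfactory receptors (from -0.08 to 0.27) and vomeronasal receptors (from -0.16 to 0.07).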
